A study of Mus musculus with 4 samples.

Results

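Chaperone and folding genes of the endoplasmic reticulum (ER) lumen were measured in the liver of 4 ABCA1-transgenic mice. The set comprises 10 genes chosen by name as targets of the ATF6 type: Hspa5, Hsp90b1, Creld2, Pdia4, Pdia6, Dnajb11, Sdf2l1, Hyou1, Manf and Calr. Every probe set annotated with 1 of these symbols alone was used, which gave 18 of the 22626 non-control probe sets on the array, and 10 of 12393 genes. The mice were C57BL/6 males of 5 to 6 months on the NIH36 diet, and each liver was hybridised to 1 array. All 4 carried the ABCA1 transgene. The labels give neither its promoter nor its species, and they disagree on the LDL receptor background, which the series title writes as -/- and the sample descriptions as +/-. Wild-type arrays were not analysed here, and all comparisons are between the 4 transgenic livers, called mouse 1 to mouse 4 after the replicate number in the titles. The labels call them biological replicates and say no more of the animals. Differences between mice therefore cannot be told apart from differences between arrays.

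Secreted and membrane proteins fold in the ER lumen, where the Hsp70-type chaperone encoded by Hspa5, known as BiP, holds unfolded chains, and partner proteins regulate its cycle, form disulphide bonds and retain glycoproteins until they are folded. When unfolded proteins build up, BiP leaves the stress sensors IRE1, PERK and ATF6. ATF6 then moves to the Golgi, is cut free of the membrane and switches on lumenal chaperone genes through ER stress response elements (ERSE), which it binds together with the CCAAT-binding factor NF-Y. Hepatocytes secrete most plasma proteins and hold large amounts of these chaperones.

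Promoters of the genes were searched for exact strings of that element, and the matches are given first. Promoter sequences from RefSeq (GRCm38.p6, 250 bases before to 50 after the annotated start) were present for 8 of the 10 genes, and Hyou1 and Manf had no entry. The motif ERSE-I, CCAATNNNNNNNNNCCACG, was found on either strand in 5 of the 8, against 39 of all 32851 promoters in the table (0.119%). The motif ERSE-II, ATTGGNCCACG, was found in 1 of the 8, against 12 of all promoters (0.0365%). Pdia4 and Sdf2l1 held neither string in this window. The search allowed no mismatch in the fixed letters, so it does not show that these genes lack the element. The matches follow in the orientation of the motif, with its fixed letters in capitals and the free bases in lower case. No ERSE-I match overlapped an ERSE-II match.
Hspa5: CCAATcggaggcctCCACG
Hsp90b1 (farther site): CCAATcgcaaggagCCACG
Hsp90b1 (nearer site): CCAATcgtgcctcaCCACG
Creld2: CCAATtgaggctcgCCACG
Pdia6: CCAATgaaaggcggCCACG
Dnajb11: ATTGGcCCACG
Calr: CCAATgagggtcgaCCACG
In Hspa5 the match began 65 bases before the start, in Pdia6 98 bases, in Creld2 126 bases and in Calr 162 bases before it. Hsp90b1 held 2 matches, which began 212 and 107 bases before the start. The Dnajb11 match lay 7 to 17 bases after it. The free bases differed between all the ERSE-I matches. These are letters in a window and not measurements of binding.

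The 250 bases before the start of 4 genes are printed in the direction of the gene, with the ERSE-I matches in capitals: Hspa5 because it encodes the central chaperone, Hsp90b1 because it holds 2 matches, Creld2 because its level differed most between the mice, and Pdia6 because its level differed little.
Hspa5 (chr2:34771840-34772089, plus strand): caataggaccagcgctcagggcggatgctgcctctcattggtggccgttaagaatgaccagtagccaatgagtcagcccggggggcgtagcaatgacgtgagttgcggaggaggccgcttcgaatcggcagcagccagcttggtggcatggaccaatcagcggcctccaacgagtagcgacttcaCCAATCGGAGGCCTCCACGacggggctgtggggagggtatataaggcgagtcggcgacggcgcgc
Hsp90b1 (chr10:86705445-86705694, minus strand): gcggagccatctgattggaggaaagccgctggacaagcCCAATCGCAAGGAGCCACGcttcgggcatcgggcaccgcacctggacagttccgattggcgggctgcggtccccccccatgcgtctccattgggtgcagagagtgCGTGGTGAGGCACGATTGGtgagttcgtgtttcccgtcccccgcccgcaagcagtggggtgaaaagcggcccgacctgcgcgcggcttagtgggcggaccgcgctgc
Creld2 (chr15:88819396-88819645, plus strand): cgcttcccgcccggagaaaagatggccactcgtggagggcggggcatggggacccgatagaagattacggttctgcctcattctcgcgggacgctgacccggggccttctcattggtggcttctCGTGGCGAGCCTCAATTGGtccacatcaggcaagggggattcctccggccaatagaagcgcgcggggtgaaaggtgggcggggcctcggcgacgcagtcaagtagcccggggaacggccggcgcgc
Pdia6 (chr12:17266339-17266588, plus strand): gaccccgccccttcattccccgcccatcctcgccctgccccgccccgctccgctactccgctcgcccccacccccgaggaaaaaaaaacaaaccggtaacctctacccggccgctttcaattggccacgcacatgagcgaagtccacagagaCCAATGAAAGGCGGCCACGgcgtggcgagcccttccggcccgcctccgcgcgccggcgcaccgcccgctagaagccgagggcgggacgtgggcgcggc
In Hspa5 and Pdia6 the match reads in the direction of the gene, and in Creld2 it reads against it. Hsp90b1 has the farther match in the direction of the gene and the nearer one against it.

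**Figure D1:**
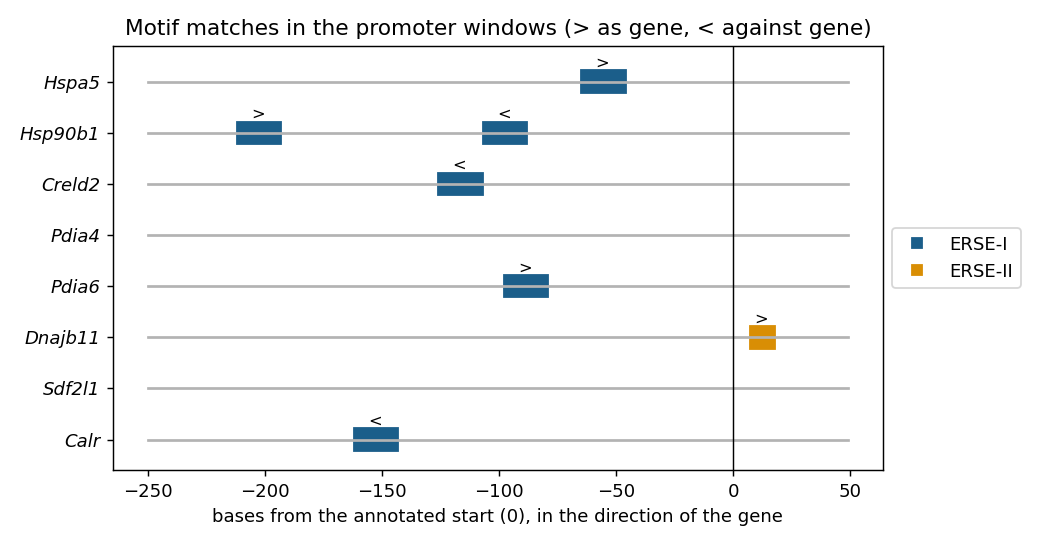
Positions of the ERSE-I and ERSE-II matches in the promoter windows of the 8 genes with an entry. The horizontal axis gives bases from the annotated start in the direction of the gene, grey lines span the window, and boxes mark matches. ERSE-I boxes lie between 212 and 47 bases before the start, and the ERSE-II box of Dnajb11 lies after it.

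Levels are log2 of the deposited signal intensity, with 1 probe set per gene, the one of highest mean level. Levels of different genes are not set against each other, because probe sets differ in binding. The difference of a mouse is its log2 level less the mean of the remaining 3. In mouse 3 all 10 chaperone genes were below the other mice, whereas 40.2% of all genes were. In mouse 1 all 10 were above the other mice, whereas 42.8% of all genes were. Among the 4157 genes at or above the lowest chaperone level, 48.6% were below in mouse 3 and 45% above in mouse 1. In mouse 2 the genes above the other mice numbered 7 of 10, against 57.9% of all genes, and in mouse 4 those below numbered 7 of 10, against 57.1%. With the probe sets of a gene averaged, mouse 2 was above in 9 of 10, against 58.5% of all genes, and mouse 4 below in 10 of 10, against 59.7%. Mouse 1 was then above in 10 of 10, against 44.2%, and mouse 3 below in 9 of 10, against 39.2%. With all arrays given 1 median, the 10 of 10 in mouse 3 stood against 52.8% and the 10 of 10 in mouse 1 against 52.1%. In that setting mouse 2 was above in 6 of 10, against 46.2%, and mouse 4 below in 4 of 10, against 40.6%. The median difference over the 10 genes was 0.28, 0.32, -0.37 and -0.11 log2 for mice 1 to 4, and over all genes -0.05, 0.06, 0.09 and -0.06. With 1 array per mouse and 1 group these differences have no replicate check and were not tested. A sign of RNA quality, the log2 ratio of 3-prime over 5-prime Actb control signal, was 1.82, 1.88, 2.12 and 2.02 in mice 1 to 4. It was lower in mice 1 and 2 than in mouse 4 and highest in mouse 3, the reverse of the order of the chaperones' average. The same ratio for Gapdh, at 1.67, 1.94, 2.03 and 2.00, had that order too. That for Pcx, at 4.09, 4.79, 4.71 and 4.79, did not. The part of RNA quality in the result was not tested.

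Leaving out 1 mouse at a time kept the signs of these medians but changed their sizes. The median of mouse 1 became 0.40 when mouse 2 was dropped and 0.17 when mouse 3 was. That of mouse 2 became 0.46 with mouse 1 dropped and 0.15 with mouse 3 dropped. That of mouse 3 stayed between -0.47 and -0.34. That of mouse 4 became -0.31 with mouse 3 dropped, -0.08 with mouse 2 dropped and -0.02 with mouse 1 dropped, and 0.031 once all arrays were given 1 median. The count of genes below the others in mouse 3 was 9 of 10 without mouse 1 and 10 of 10 without mouse 2 or mouse 4. Over all genes the shares without mice 1, 2 and 4 were 42.0%, 38.4% and 42.4%. The count above the others in mouse 1 was 10 of 10 without mouse 2, 8 of 10 without mouse 3 and 9 of 10 without mouse 4. Over all genes those shares were 44.6%, 45.3% and 40.1%. Without mouse 1, mouse 2 was above the others in 10 of 10, against 55.3% of all genes. With mouse 3 dropped it was above in 6 of 10, against 61.0%, and with mouse 4 dropped in 7 of 10, against 55.4%. Mouse 4 was below the others in 6 of 10 without mouse 1, 6 of 10 without mouse 2 and 8 of 10 without mouse 3. Over all genes those shares were 60.3%, 55.6% and 54.3%.

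The mice were also compared in pairs. The chaperones had a median difference of 0.57 log2 (1.48-fold) between mouse 1 and mouse 3, with all 10 genes higher in mouse 1, against 39.8% of all genes, while the median over all genes was -0.11. Between mouse 2 and mouse 3 it was 0.52 log2 (1.43-fold), again with 10 of 10 genes higher in mouse 2, against 48.7% of all genes, although Hyou1 differed by only 0.0067. Mouse 1 minus mouse 2 gave -0.03, with 5 of 10 genes higher in mouse 1, against 40.7%, a share near that of all genes. Mouse 3 minus mouse 4 gave -0.25, with 2 of 10 higher in mouse 3, against 60.2%. Mouse 1 minus mouse 4 gave 0.32, with 9 of 10 higher in mouse 1, against 49.9%. Mouse 2 minus mouse 4 gave 0.26, with 7 of 10 higher in mouse 2, against 59.4%.

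**Figure D2:**
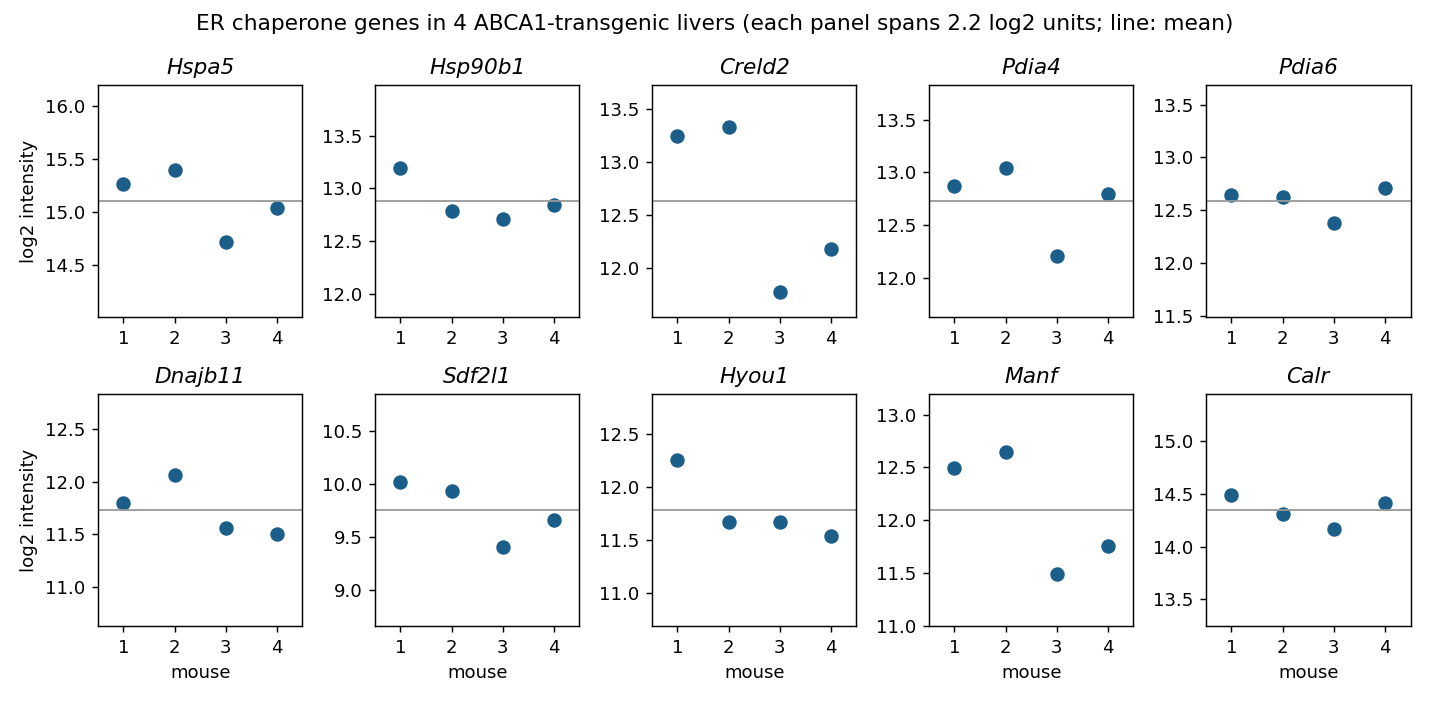
Log2 intensity of each of the 10 genes in mice 1 to 4, on the probe set of highest mean level. Points are single arrays, the grey line is the mean of the 4 mice, and every panel spans the same range of log2 units. Creld2 and Manf show the widest gaps between mice, and Pdia6 and Calr the narrowest.

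Hspa5 encodes BiP itself. Its intensity was 39268.9, 43126.1, 26888 and 33572.5 in mice 1 to 4, or 15.26, 15.40, 14.71 and 15.04 log2. The level was 15.10 ± 0.30 log2 (SD, n = 4), and mouse 2 exceeded mouse 3 by 1.60-fold. The SD was 2.42 times the prior SD, which is the SD expected of probe sets at that mean level from a limma fit over the whole array. Without mouse 3 the SD was 0.18. The second Hspa5 probe set, whose identifier ends in _s_at, measured 13.86, 13.80, 13.24 and 13.41 log2, again highest in mice 1 and 2 and lowest in mouse 3.

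Dnajb11, a J-domain co-chaperone that brings substrates to BiP, measured 11.80, 12.06, 11.56 and 11.50 log2 in mice 1 to 4. It was highest in mouse 2 and lowest in mouse 4, and its SD of 0.26 was 0.16 without mouse 2. Sdf2l1, which forms a complex with Dnajb11 protein, measured 10.02, 9.94, 9.41 and 9.66. Its order was that of the set as a whole, with mice 1 and 2 above mouse 4 and mouse 3 lowest. Hyou1, an Hsp110-type nucleotide exchange factor for BiP, gave 12.25, 11.67, 11.67 and 11.53 across mice 1 to 4. Mouse 1 stood apart on this probe set, and the SD of 0.32 was 0.079 without that mouse. The identifier of this probe set ends in _s_at. With _s_at and _x_at probe sets left out, the SD of Hyou1 was 0.23. A second Hyou1 probe set measured 9.84, 9.82, 9.40 and 9.45, with mice 1 and 2 alike, and another, at a low mean level of 7.05, measured 7.59, 6.96, 6.47 and 7.18. The probe sets shared the high value of mouse 1 and differed on mouse 2.

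Hsp90b1, the Hsp90-type chaperone of the ER known as GRP94, measured 13.19, 12.78, 12.71 and 12.84 log2 in mice 1 to 4, or 12.88 ± 0.21 (SD, n = 4). Mouse 1 was highest and the other 3 lay close together, with an SD of 0.066 without mouse 1. The second probe set, at 12.51, 12.32, 11.85 and 11.86, placed mouse 2 near mouse 1.

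The protein disulphide isomerases, which make and reshuffle disulphide bonds, differed from each other. Pdia4 measured 12.87, 13.04, 12.20 and 12.80 log2 in mice 1 to 4, a gap of 1.78-fold between mice 2 and 3. Only mouse 3 was set off, and without it the SD was 0.12 in place of 0.36. Pdia6 measured 12.64, 12.62, 12.38 and 12.71, or 12.59 ± 0.15 (SD, n = 4), and its largest gap was 1.26-fold. It was again lowest in mouse 3, and its SD was 0.046 without that mouse and 0.23 with all arrays given 1 median. The other probe sets of both genes had lower mean levels and other orders. Pdia4 measured 7.57, 6.73, 6.98 and 6.74 there, and Pdia6 8.20, 8.59, 8.52 and 7.61. On those probe sets mouse 3 was not the lowest.

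Calr, calreticulin, a lectin chaperone that binds sugar chains and calcium, had the smallest SD of the set over the 4 mice. It measured 14.48, 14.31, 14.17 and 14.42 log2 in mice 1 to 4, or 14.35 ± 0.14 (SD, n = 4). The highest and lowest mice differed by 1.24-fold. Its SD was 0.088 without mouse 3, when that of Pdia6 was smaller, and 0.22 with all arrays given 1 median. Without mouse 1 the SDs of Hsp90b1 and Hyou1 were below its 0.12. The other probe sets, both with identifiers ending in _x_at and so able to bind related sequences, measured 13.69, 13.67, 13.49 and 13.45, and 13.19, 13.29, 12.91 and 12.91. All 3 probe sets had mouse 3 below their mean.

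Creld2, a cysteine-rich protein of the ER lumen with EGF-like domains that is induced by ER stress, had the widest spread. Its intensity was 9719, 10314.2, 3500.1 and 4620 in mice 1 to 4. On the log2 scale these are 13.25, 13.33, 11.77 and 12.17, or 12.63 ± 0.78 (SD, n = 4), and mouse 2 exceeded mouse 3 by 2.95-fold. Manf, a small stress-induced protein that binds BiP and is in part secreted, had the same order. It measured 12.49, 12.65, 11.49 and 11.75 log2, or 12.10 ± 0.56 (SD, n = 4), a gap of 2.22-fold between mice 2 and 3. In both genes the values of mice 1 and 2 were above those of mice 3 and 4. The share of all genes with this order was not counted. Of the 4157 genes at or above the lowest chaperone level, 19 (0.457%) had a larger SD than Creld2 and 45 (1.08%) a larger SD than Manf. Each of the 2 genes was measured by 1 probe set, so neither could be checked on another.

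**Figure D3:**
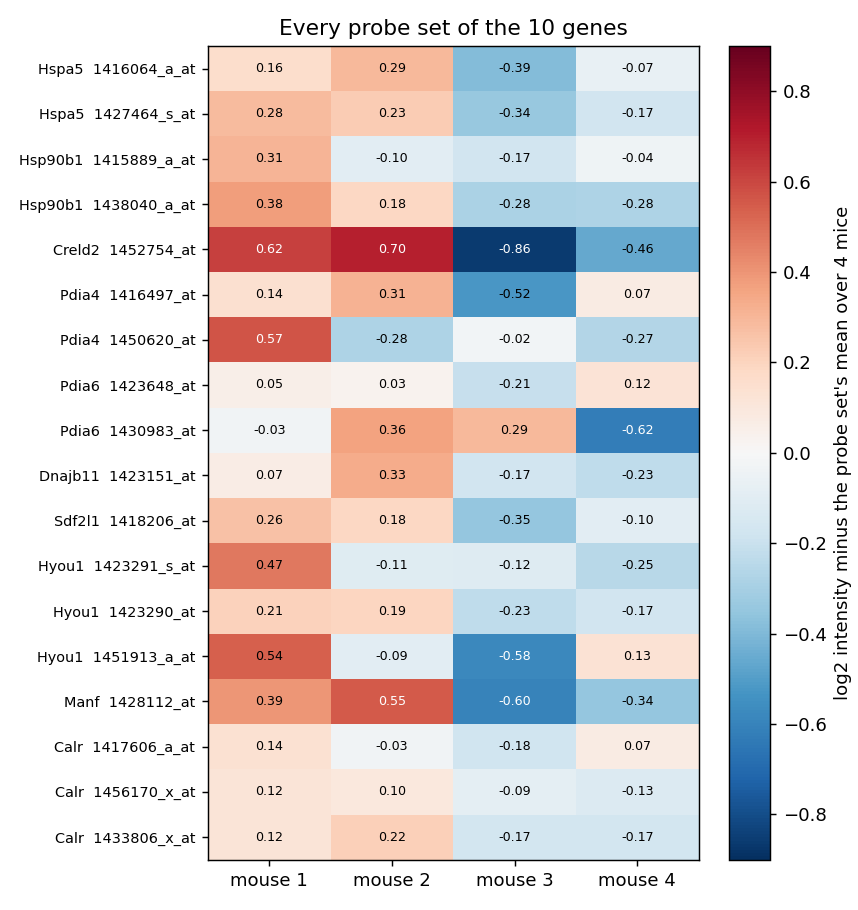
Log2 intensity of all 18 probe sets minus their own mean over the 4 mice, with the value in each cell. Red is above the mean and blue below. Mouse 1 is above the mean in 17 of 18 rows and mouse 3 below it in 17 of 18.

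Over all probe sets of the 10 genes, 17 of 18 were below their own mean in mouse 3, against 41.4% of all probe sets on the array. The exception was the low-level probe set of Pdia6. In mouse 1, 17 of 18 were above their mean, against 45.6%. Mouse 3 was the lowest mouse in 12 of 18, against 20.8% of the array. Mouse 4 was lowest in 5, against 31.6%, and mouse 2 in 1, against 20.7%. Probe sets of 1 gene share its RNA and the hybridization, so these counts are not independent.

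The spread between mice was tested on the whole array. The variance of each probe set was set against a prior variance that follows mean level, with limma's upper-tail F-test and Benjamini-Hochberg adjustment over 22626 probe sets. Of the 18 probe sets, 0 passed at an adjusted p under 0.05, and the share over the whole array was 0%. The unadjusted p was under 0.05 for 3 of the 18, against 3.71% of the array. These were Creld2 at 4.92 times the prior SD (unadjusted p = 0.0024, limma), Manf at 3.36 times (0.013) and the higher Hspa5 probe set at 2.42 times (0.046). The adjusted p was 0.977 for each of the 3 in limma's test. Under the alternatives, the other priors left out, the lowest adjusted p (limma) was 0.147 for Creld2, 0.427 for Manf and 0.702 for Hspa5. The median ratio of SD to prior SD was 1.69 over the 10 genes and 0.96 over all genes. The number of arrays limits the precision: with 4 the 95% interval of an SD runs from 0.57-fold to 3.73-fold of the estimate.

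**Figure D4:**
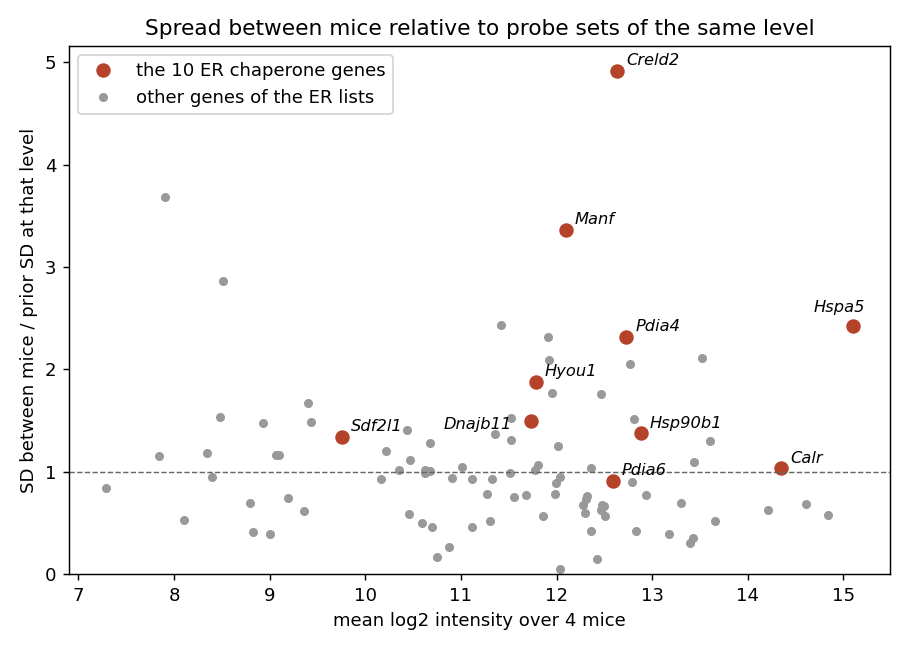
SD between the 4 mice divided by the prior SD at the same level, against mean log2 intensity, for the 10 chaperone genes (red) and the other genes of the ER lists (grey). The dashed line marks a ratio of 1. Creld2 lies at 4.92 and Manf at 3.36, and Pdia6, at 0.91, lies below the line.

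A further test asked whether the probe sets of 1 gene show the same differences between mice, as an F-test of mouse against residual with limma's moderated residual variance, adjusted over the 4956 genes with at least 2 probe sets. Since the probe sets share an array, it says nothing on animal against array. Of the 6 chaperone genes that could be tested 0 passed, against 0.383% of all genes tested. An unadjusted p under 0.05 was found for 4 of the 6, namely Hspa5, Hsp90b1, Hyou1 and Calr, against 9.12% of all genes tested. Hspa5 had the lowest adjusted p, at 0.116 (limma), and passed under 3 of the alternatives, with adjusted p of 0.049 with all arrays set to 1 median, 0.039 when intensities under 64 were raised to 64 and 0.014 among probe sets at or above the median level. Of all genes tested in these settings 1.03%, 1.13% and 3.10% passed. Without mouse 3 its adjusted p was 0.611. Pdia4 and Pdia6 had adjusted p of 0.664 and 0.772 (limma).

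Other genes of ER protein handling were described from lists of genes named by function. Of 40 further folding genes, which hold calnexin, peptidyl-prolyl isomerases and glycan-processing enzymes, 37 were measured. In mouse 3, 17 of the 37 were below the other mice, against 40.2% of all genes, and the list median was 0.00. In mouse 1, 16 were above, against 42.8%, and the median was -0.06. In mouse 2, 26 were above, against 57.9%, and the median was 0.10. Of the 37, 0 passed limma's spread test and 1 had an unadjusted p under 0.05, against 3.71% of probe sets on the array. That gene, Fkbp11, a prolyl isomerase of secretory cells, measured 8.59, 8.36, 8.51 and 6.15 log2 in mice 1 to 4, low in mouse 4. Cnpy3, a co-chaperone of GRP94, was the next widest at 8.50, 9.15, 9.27 and 8.77, lowest in mouse 1. Tmx1, a membrane-bound thioredoxin-like oxidoreductase, had the smallest spread, at 12.43 ± 0.02 (SD, n = 4). Dnajb9, a J-domain co-chaperone of BiP and XBP1 target named after its values were seen, measured 12.94, 13.06, 12.33 and 12.72. The median SD was 0.29 for the 10 chaperones and 0.17 for this list.

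The translocon and signal peptidase list, whose members pass new chains into the ER, had medians of 0.05, 0.05, -0.05 and -0.01 in mice 1 to 4 over 20 of 23 genes. Its widest genes were Sec61b, a channel subunit, at 12.51, 12.10, 12.47 and 12.79, and Ssr4, a translocon-associated subunit, at 11.67, 11.24, 11.11 and 11.41. Srp19, of the signal recognition particle, measured 10.87 ± 0.05 (SD, n = 4). In mouse 3, 14 of the 20 genes were below the others. The share was 40.2% over all genes and 48.6% over those at or above the lowest chaperone level. The list median in mouse 3 was -0.05, and the median SD was 0.11.

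The sensors and transcription factors of the unfolded protein response differed in order among themselves. Their list had medians of -0.14, 0.04, -0.01 and 0.06 over 12 of 13 genes. Atf6 measured 10.03, 10.10, 10.08 and 10.43 log2 and Xbp1 14.48, 14.67, 14.67 and 14.63, both lowest in mouse 1. Both were named after their values were seen. The array reads total transcript and neither cleaved ATF6 nor spliced Xbp1. Atf4, the factor of the PERK branch, had the smallest spread, at 11.11 ± 0.08 (SD, n = 4). Ddit3, its pro-apoptotic target CHOP, had the widest and was lowest in mouse 3, at 8.72, 9.04, 7.40 and 8.90 across mice 1 to 4. The next was Atf6b, a relative of Atf6, at 7.71, 8.38, 7.76 and 7.51.

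In the list of ER-associated degradation and stress response genes, 10 of 16 were below the others in mouse 3, against 40.2% of all genes. In mouse 1, 8 of 16 were above, against 42.8%. Syvn1, the ubiquitin ligase that marks misfolded ER proteins, was the widest and measured 11.63, 11.90, 10.95 and 11.18 log2, with mice 1 and 2 above mice 3 and 4. Asns, asparagine synthetase, an ATF4 target, measured 8.35, 8.44, 9.04 and 8.07 and was highest in mouse 3. Edem1, which draws misfolded glycoproteins out of the folding cycle, measured 12.04 ± 0.0077 (SD, n = 4).

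Of heat shock chaperones outside the ER, 12 of 16 were below the others in mouse 3, with a median of -0.35, where 40.2% of all genes were below. Without the mitochondrial Hspd1 and Hspe1, left out after their values were seen, it was 11 of 14 with a median of -0.36. In mouse 2, 12 of the 16 were above the others, against 57.9% of all genes, with a median of 0.33. In mouse 1, 11 were above, against 42.8%, with a median of 0.07. The agreement test called 2 of 12 of these genes, Hspa1b (adjusted p = 0.029, limma) and Hsph1 (0.040), against 0.383% of all genes tested. In limma's spread test 0 of 16 passed and 3 had an unadjusted p under 0.05, against 3.71% of probe sets on the array. Hspa1b, an inducible Hsp70 named after its values were seen, measured 12.82, 12.83, 11.99 and 12.67 log2 in mice 1 to 4, lowest in mouse 3. The widest were Hspa1a, also an inducible Hsp70, at 7.94, 8.66, 7.51 and 8.06, and Hsph1, an Hsp110, at 12.80, 13.32, 12.22 and 12.75, while Hspd1, the mitochondrial Hsp60, measured 14.49 ± 0.02 (SD, n = 4).

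**Figure D5:**
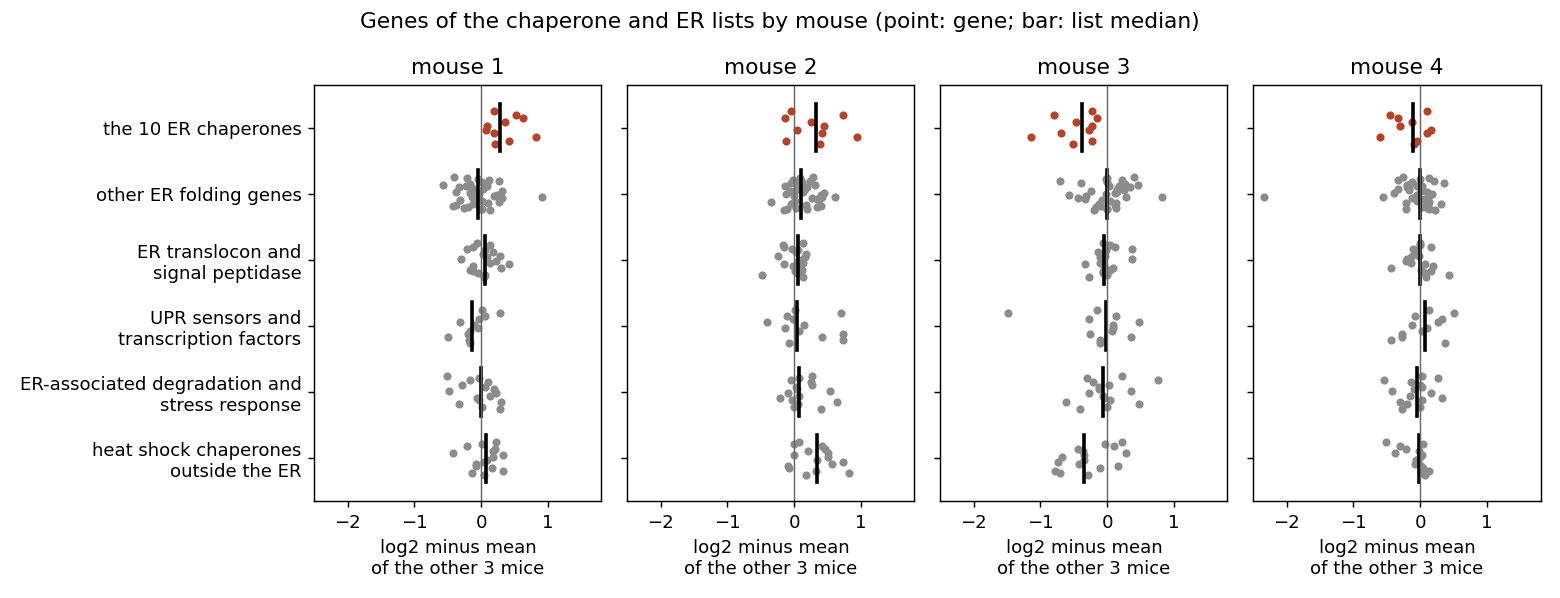
Difference in log2 level of each gene between 1 mouse and the mean of the rest, for the 10 ER chaperones (red) and 5 further lists (grey), with 1 panel per mouse. Points are genes and black bars list medians. In mouse 3 all chaperone points lie left of 0 with a median of -0.37, while the bar of the other ER folding genes lies at 0.00.

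Genes outside the set whose promoters hold the ERSE-I or ERSE-II string were described in the same way. There were 43, of which 20 were measured. In mouse 3, 10 of the 20 were below the other mice, against 40.1% of all measured genes with a promoter entry. Among the 15 at or above the median level of all genes, 9 were below in mouse 3, against 44.1%, with a median of -0.16. Of the 20, 6 also belonged to the ER lists, namely Canx, Derl3, Dnajc3, Ero1b, Herpud1 and Syvn1. All 6 of these were below the other mice in mouse 3, with a median of -0.33, where 10 of all 20 were. In mouse 1, 5 of the 6 were above, where 10 of all 20 were. The shares over all measured genes with a promoter entry were 40.1% below in mouse 3 and 42.9% above in mouse 1. Herpud1, an adaptor of ER-associated degradation, measured 13.74, 13.83, 13.21 and 13.31 log2 in mice 1 to 4. Canx, the membrane-bound relative of calreticulin, measured 13.54, 13.32, 13.28 and 13.61. This group of 6 was formed after the values were seen.

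The genes with the profile closest to that of the set were found by the root mean square difference, over the 4 mice, between each gene's deviations from its own mean and the average deviations of the 10 chaperones, which were 0.26, 0.22, -0.36 and -0.12 log2. The median of this distance over 6187 candidate genes was 0.31. Fkbp2, a prolyl isomerase of the ER, was the closest at 0.024, with levels of 11.75, 11.72, 11.19 and 11.42. It was followed by St3gal5, a Golgi sialyltransferase that makes the ganglioside GM3, at 0.026, Lect2, a protein secreted by hepatocytes, at 0.027, Phf5a, a splicing factor subunit, at 0.029, and Rbm8a, of the exon junction complex, at 0.034. Snhg5, Plekhg5, Abt1, Heatr6 and 0610009B22Rik lay between 0.037 and 0.041. Within the set Sdf2l1 was nearest to the average, at 0.021, and Creld2 farthest, at 0.425. All points share the same 4 arrays, so likeness over 4 values is a description.

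Markers of other cells and RNA quality also differed between the mice. Of exocrine pancreas markers, whose cells are rich in ER chaperones, 12 of 15 were measured. Their intensities summed to 2180, 7730, 2426 and 3391 across mice 1 to 4. All 12 were above the others in mouse 2, against 57.9% of all genes. Cpa1 measured 2.29, 9.36, 3.35 and 6.24 log2 and Cpb1 6.63, 9.55, 3.89 and 8.20. Without mouse 2 the chaperones were 10 of 10 above in mouse 1, against 44.6% of all genes, and 10 of 10 below in mouse 3, against 38.4%. The part of the pancreas markers in the chaperone values was not tested.

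Of plasma and B cell markers 10 of 13 were measured, with sums of 14108, 14144, 13409 and 11781. Most of each sum was Sdc1, which hepatocytes also express, and without it, left out after its values were seen, the sums were 4853, 5231, 3934 and 4012. Jchain, the immunoglobulin joining chain, measured 9.10, 9.28, 8.66 and 8.54 log2, and Ighm 11.42, 11.37, 10.45 and 11.06, both higher in mice 1 and 2 than in mice 3 and 4. Igha, at 9.54, 9.80, 10.09 and 9.33, and Ms4a1, at 7.33, 7.47, 8.36 and 8.09, were highest in mouse 3 and were named after their values were seen. Of the 10 markers, 5 were above the others in mouse 1 and 6 in mouse 3, against 42.8% and 59.8% of all genes. The median difference of the list was -0.02, 0.38, 0.11 and -0.29 in mice 1 to 4. Hepatocyte markers, the check on the tissue, had medians of -0.03, 0.13, -0.07 and -0.01. In mouse 3, 9 of 9 were below the others, against 40.2% of all genes. Fewer cells of a type and less RNA per cell cannot be told apart in whole liver. Skeletal muscle markers summed to 1392 in mouse 1 and to 11087, 8052 and 10180 in mice 2 to 4. Bile duct markers (7 of 9 measured) summed to 411 in mouse 1 and to 1287, 1259 and 1050 in mice 2 to 4. Stellate cell and fibroblast markers (10 of 10) had medians of -0.44, -0.05, 0.35 and 0.07 in mice 1 to 4. Macrophage markers (11 of 12) had medians of -0.12, -0.20, 0.22 and 0.08. In mouse 3, 10 of 11 were above the others, against 59.8% of all genes. Adipocyte markers (6 of 8) had medians of -0.49, 0.91, -0.19 and -0.16. The 18S control probe sets were highest in mouse 1, at 9.95 log2 against 8.98, 8.75 and 8.79, and the log2 ratio of 3-prime over 5-prime Gapdh control signal was lowest there, at 1.67 against 1.94, 2.03 and 2.00, as was that of Pcx, at 4.09 against 4.79, 4.71 and 4.79. The part of the differences in cell markers and RNA quality in the chaperone values was not tested. Abca1, the gene the transgene is named for, measured 12.82 ± 0.17, 8.87 ± 0.24 and 8.06 ± 0.25 log2 (SD, n = 4) on its 3 probe sets, with no level lacking the transgene to set beside them.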

How the data were processed

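Each of the 4 transgenic livers was hybridised to 1 array; per the labels' protocols, Trizol-extracted RNA was amplified from 2 ug with RiboAmp. The deposited values are 1 linear signal intensity per probe set and array, from 0.1 to 79882.6. RMA is named, without a version, per the submitters' processing notes. The intensities are linear, sorted log2 values differ by up to 1.17 between arrays, and the mean after trimming 2% at each end is 1000 on every array. Background treatment and detection calls are not given in the sources used here. The 64 control probe sets were left out of the tests. The log2 of each intensity was taken without a pseudocount or rescaling. Gene names came from the platform annotation (20380 probe sets with 1 symbol, 691 with several, 1555 with none). Spread and probe-set agreement were tested with limma 3.58.1 in R 4.3.3, with a trend on mean level, and both were tested on simulated data. The 14 gene lists hold 210 entries, of which 189 were measured. Named are all 10 chaperones, the widest 2 genes and the narrowest gene of each other ER or heat shock list, the 10 genes of closest profile among those at or above the median level, and defining pancreas and plasma cell markers. The genes, lists and rules were chosen with earlier results of these data known. Alternatives were quantile normalization, a shift to equal medians, filters on low levels, leaving out _s_at and _x_at probe sets, other priors, averages over probe sets or genes, and leaving out each mouse.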

Additional observations from a re-analysis of the deposited data

Results flagged for a closer look

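In groups of 4 values, a mouse was marked when its gap to the nearest other mouse, divided by the whole range, exceeded Dixon's 95% critical value. Of 58 probe sets named in the report 2 were marked, where chance marks about 5%, and 0 of these belonged to the 10 chaperones. Fkbp11 had a ratio of 0.905, with 6.15 log2 in mouse 4 against 8.59, 8.36 and 8.51 in mice 1 to 3. Edem1 had a ratio of 0.85, with 12.05 in mouse 1 against 12.03 in each of the others, a difference of little size.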

How the results depend on the processing

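No paired analysis was possible because all samples belong to 1 group. The count of chaperone probe sets past the spread test was 0 under all 7 alternatives and without any 1 mouse, while among probe sets at or above the median level 11 passed on the array. The count of chaperone genes past the agreement test was 1, for Hspa5, with all arrays set to 1 median, with intensities under 64 raised to 64 and among probe sets at or above the median level, and 0 otherwise. Without _s_at and _x_at probe sets only 4 chaperone genes could be tested, Hspa5 not among them. On the array that test called 51 of 4956 genes, 47 of 4165 and 69 of 2227 under those first 3 settings, against 19 of 4956 as reported, 14 of 4956 after quantile normalization, 0 of 4085 without _s_at and _x_at probe sets and 0 to 4 without 1 mouse. The median differences of mice 1 to 3 kept their signs, from 0.25 to 0.40, from 0.23 to 0.33 and from -0.49 to -0.35, and without 1 mouse from 0.17 to 0.40, from 0.15 to 0.46 and from -0.47 to -0.34. Giving all arrays 1 median made the value of mouse 4 0.031, with 4 of 10 genes below the others, against 40.6% of all genes. The median over all genes there was 0.082 in place of -0.06. The cause was not tested. Under the other alternatives the value of mouse 4 lay between -0.19 and -0.10. The counts of genes above or below the others in each mouse were added after seeing the data, and with the probe sets of a gene averaged they were 10, 9, 9 and 10 of 10 for mice 1 to 4, where 10, 7, 10 and 7 are reported. Over all genes the shares with averaging were 44.2% above in mouse 1, 58.5% above in mouse 2, 39.2% below in mouse 3 and 59.7% below in mouse 4.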
